A study of Mus musculus with 10 samples.

Results

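The genes described here are 55 mouse genes of mitosis and chromosome segregation: G2/M regulators, spindle checkpoint and kinetochore genes, spindle motors, cytokinesis genes and condensin subunits, taken from a written list by gene symbol. All 55 were found among the 55401 genes of the count table, and all 55 were among the 17464 genes with enough counts to be tested. RNA was sequenced from 10 subcutaneous KPN1.1 tumors, 5 from mice that received liraglutide and 5 from mice that received vehicle. KPN1.1 is a single mouse lung cancer line, so every tumor of either group came from the same line. All hosts were obese male C57BL/6J mice on a chow with 60% of calories from fat, aged 7 to 17 weeks when 75000 cells were placed in the flank. Liraglutide, an agonist of the glucagon-like peptide-1 receptor, was given into the peritoneum each day at 0.2 μg per gram of body weight, and vehicle mice received PBS. Mice were euthanized on days 19 to 22. Each library was made from a frozen fragment of a whole tumor, with the stroma, leukocytes and skin of the host that it held. Nothing in the labels ties a vehicle tumor to a liraglutide tumor, and the tumor number serves only as a name.

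A cell that has copied its genome enters mitosis when cyclin B-CDK1 becomes active, condenses its chromosomes, attaches the kinetochores to spindle microtubules and holds anaphase back until every kinetochore is attached. The anaphase-promoting complex then destroys securin and cyclin B, separase opens cohesin, and the central spindle and a contractile ring divide the cell. Most genes of this program are transcribed in G2 and M. NF-Y binds their promoters at CCAAT boxes. The MuvB complex, with B-MYB or FOXM1, binds them at the cell cycle genes homology region (CHR, TTTGAA). In bulk tumor RNA the level of these genes may therefore follow the share of dividing cells.

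The promoters of 4 members are shown because they hold, in different combinations, the elements that these genes have in common. Each window runs from 250 bases before to 50 bases after the RefSeq transcription start on GRCm38.p6, and reads 5′ to 3′ on the strand of the gene. Capitals mark every match, on either strand, to CCAAT, which reads ATTGG when it lies on the other strand, to TTTGAA, or to an E2F form (TTTCCCGC, TTTGGCGC, TTTGCCGC or TTTCGCGC). Ccnb1, cyclin B1, lies on the minus strand at chr13:100786437-100786736. Cdk1, the mitotic kinase, lies on the minus strand at chr10:69352863-69353162. Plk1, Polo-like kinase, lies on the plus strand at chr7:122159185-122159484, and Cdc20, the activator of the anaphase-promoting complex, on the minus strand at chr4:118437294-118437593.
Ccnb1: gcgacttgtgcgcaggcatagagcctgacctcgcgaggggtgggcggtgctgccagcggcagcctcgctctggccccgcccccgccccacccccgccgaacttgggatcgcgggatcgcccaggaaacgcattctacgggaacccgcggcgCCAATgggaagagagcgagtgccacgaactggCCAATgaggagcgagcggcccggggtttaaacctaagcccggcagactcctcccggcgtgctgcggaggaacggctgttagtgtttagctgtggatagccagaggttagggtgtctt
Cdk1: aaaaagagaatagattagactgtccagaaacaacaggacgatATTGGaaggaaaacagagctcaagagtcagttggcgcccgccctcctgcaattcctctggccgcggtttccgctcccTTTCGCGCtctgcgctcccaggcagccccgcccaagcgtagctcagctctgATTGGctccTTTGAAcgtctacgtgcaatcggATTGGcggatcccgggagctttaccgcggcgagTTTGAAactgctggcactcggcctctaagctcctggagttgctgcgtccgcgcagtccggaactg
Plk1: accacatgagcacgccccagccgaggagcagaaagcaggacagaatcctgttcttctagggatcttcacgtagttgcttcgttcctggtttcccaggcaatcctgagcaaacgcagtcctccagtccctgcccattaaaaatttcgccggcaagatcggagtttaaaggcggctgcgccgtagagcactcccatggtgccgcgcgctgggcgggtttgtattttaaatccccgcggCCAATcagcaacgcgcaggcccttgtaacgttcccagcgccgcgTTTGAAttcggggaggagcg
Cdc20: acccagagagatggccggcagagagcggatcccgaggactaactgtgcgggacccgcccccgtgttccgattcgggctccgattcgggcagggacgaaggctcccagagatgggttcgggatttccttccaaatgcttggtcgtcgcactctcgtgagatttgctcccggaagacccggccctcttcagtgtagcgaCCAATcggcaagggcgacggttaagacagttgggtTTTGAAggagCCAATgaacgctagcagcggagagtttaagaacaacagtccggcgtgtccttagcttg

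The Ccnb1 window held 2 CCAAT boxes, with first bases at -99 and -67 from the start, and no TTTGAA. The Cdk1 window held 3 CCAAT boxes, at -208, -80 and -48, 2 TTTGAA matches, at -71 and -15, and the E2F form TTTCGCGC at -131. In Plk1 both elements lay close to the start, with CCAAT at -14 and TTTGAA at 31, and in Cdc20 the TTTGAA at -18 lay between CCAAT boxes at -53 and -8.

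These letters were common among the members. RefSeq windows were at hand for 45 of the 55 genes, as 48 windows. CCAAT occurred in 72.9% of the 48 windows and in 37.4% of the 32851 promoter windows of all genes, and at least 2 CCAAT boxes in 47.9% against 11.7%. TTTGAA occurred in 79.2% of the member windows and in 17.9% of all windows. Both together were found in 66.7% of member windows against 6.95% of all windows. An E2F form was found in 5 member windows, 10.4% against 2.26%. The 36 windows of 30 genes of DNA replication and S phase differed in this respect: CCAAT was found in 52.8% of them, TTTGAA in 19.4%, both in 8.33% and an E2F form in 36.1%. The windows of Pttg1, Mad2l1, Birc5, Nuf2, Nusap1, Ncaph and Kif18a held neither CCAAT nor TTTGAA. A spacing of 32 bases between CCAAT boxes, seen in the Ccnb1 and Cdk1 windows, was searched for after it had been noticed there, and was present in 4 member windows (8.33%) and in 0.402% of all windows. A match is a run of letters and not a measured binding site.

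**Figure D1:**
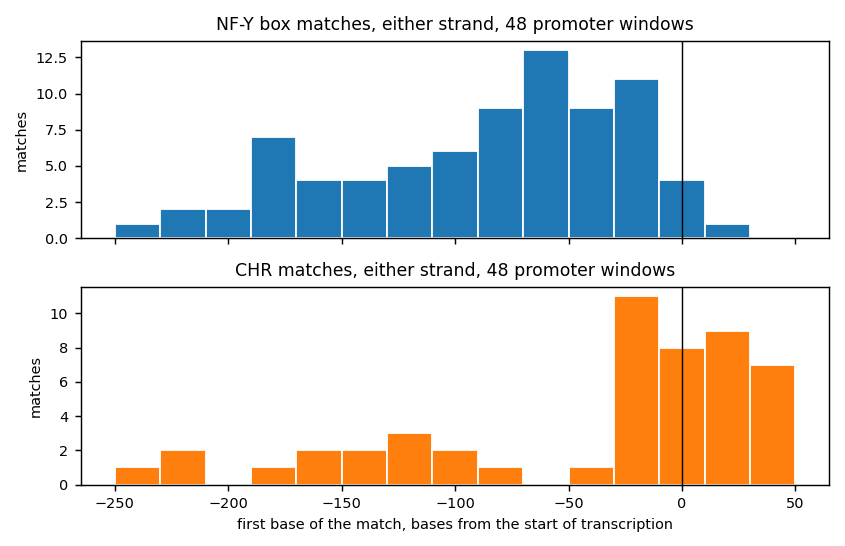
Position of every CCAAT match (NF-Y box, upper panel, 78 matches) and every TTTGAA match (CHR, lower panel, 50 matches) in the 48 promoter windows of the mitosis genes, as the first base of the match in bases from the start of transcription, in bins of 20 bases; bar height is the number of matches. The median position was -72.5 for CCAAT and -16.0 for TTTGAA. Bub3, Ect2 and Prc1 have overlapping windows from different starts, and their matches are counted in each window.

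No mitosis gene differed between liraglutide and vehicle tumors after correction over all genes. With edgeR's quasi-likelihood test and Benjamini-Hochberg adjustment, 0 of 55 members passed an adjusted p of 0.05, as did 0% of the 17464 genes tested, and the members' adjusted p values ran from 0.482 to 0.991. What the members shared was a direction: the log2 fold change, liraglutide minus vehicle, was below 0 in 55 of 55, against 52.6% of all genes tested. Their median log2 fold change was -0.37, against -0.02 over all genes tested, with a range from -0.62 for Knl1 to -0.01 for Pttg1. At an unadjusted p under 0.05, 8 members (14.5%) had a lower mean in liraglutide tumors, against 5.62% of all genes, and 0 had a higher mean, against 3.97%. These 8 were Kif18a, Smc4, Ccnb1, Spc25, Hmmr, Mad2l1, Smc2 and Ncapg. The values of the groups overlapped for every member. Over all genes tested, the groups did not overlap in 1.49%, either direction counted, so overlap in every member is near that share. Every liraglutide tumor lay below every vehicle tumor in 0.888% of all genes.

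The same direction in 55 genes is not 55 independent results, because the members moved together from tumor to tumor. In bulk RNA, fewer dividing cells and less of this RNA per cell cannot be told apart. DESeq2, the tool used in the study, gave 0 members with an adjusted p under 0.05 among the 26 for which it gave one, against 2.4% of the 4254 genes with such a value, and 10 members at an unadjusted p under 0.05 with a lower mean, against 6.01%. With counts scaled by library size alone, which moved the median of all genes to 0.04, 54 members were below 0, against 44.2% of all genes, and 4 had an unadjusted p under 0.05 with a lower mean, against 3.54%.

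**Figure D2:**
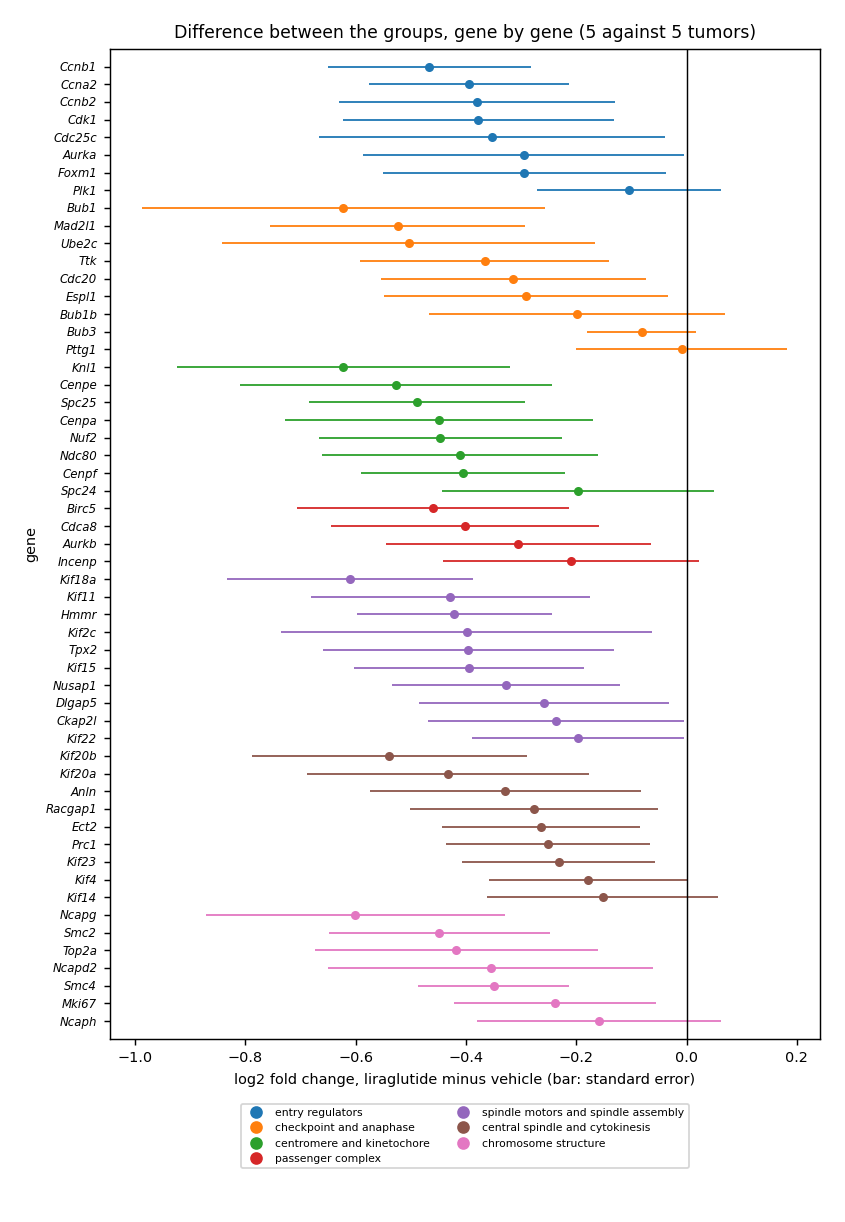
The log2 fold change of each of the 55 members, liraglutide minus vehicle (5 against 5 tumors), with its standard error as a bar; colors mark the 7 role groups. All points lie left of 0, from -0.62 for Knl1 to -0.01 for Pttg1, and the median standard error was 0.23.

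By role, the median log2 fold change was -0.45 for the 8 centromere and kinetochore genes, -0.40 for the 10 genes of spindle motors and spindle assembly and -0.37 for the 8 entry regulators. It was -0.36 for the 7 chromosome structure genes, -0.35 for the 4 genes of the chromosomal passenger complex, -0.31 for the 9 checkpoint and anaphase genes and -0.26 for the 9 genes of the central spindle and cytokinesis. Differences between these medians were not tested.

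Tumors of the same group differed widely in their level of mitosis RNA. As the mean over the 55 members of log2 CPM (read counts scaled by TMM to a common library size) minus the mean over all 10 tumors, vehicle tumors 1 to 5 stood at 0.38, 0.47, 0.55, -0.56 and -0.05, and liraglutide tumors 1 to 5 at -0.18, 0.32, -0.28, -0.26 and -0.40. The vehicle mean was 0.16 ± 0.46 (SD, n = 5) and the liraglutide mean -0.16 ± 0.28 (SD, n = 5), with a pooled SD within groups of 0.38. Vehicle tumors 1, 2 and 3 and liraglutide tumor 2 were high, vehicle tumor 4 was the lowest of all, and the groups overlapped over most of their range. As a share of all counts, the members took 0.567%, 0.587%, 0.604%, 0.308% and 0.434% in vehicle tumors 1 to 5 and 0.370%, 0.557%, 0.372%, 0.380% and 0.352% in liraglutide tumors 1 to 5.

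This order held gene by gene. In 47 of 55 members the 4 highest tumors were vehicle 1, 2 and 3 and liraglutide 2. Vehicle tumor 4 was the lowest vehicle tumor for 50 members and lay below every liraglutide tumor for 35. Liraglutide tumor 2 was the highest liraglutide tumor for 53 members. The median factor between the highest and lowest tumor was 2.29 within vehicle and 1.69 within liraglutide. Over all 10 tumors this factor ran from 1.31 for Bub3 to 3.82 for Kif2c, the kinesin that depolymerizes microtubules at centromeres.

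Both tumors bear on the size of the group difference. Without vehicle tumor 4 the median log2 fold change of the members was -0.51 and 43 of 55 passed an unadjusted p of 0.05 with a lower mean, against 8.06% of all genes. Without liraglutide tumor 2 the median was -0.49 and the count 23, against 7.95%. Without vehicle tumor 3 the median was -0.26 and the count 1, against 4.29% of all genes, and without vehicle tumor 2 the count was 0, against 3.35%. The members below 0 numbered 53 without vehicle tumor 3. In each of these fits 0 members passed the adjusted p.

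**Figure D3:**
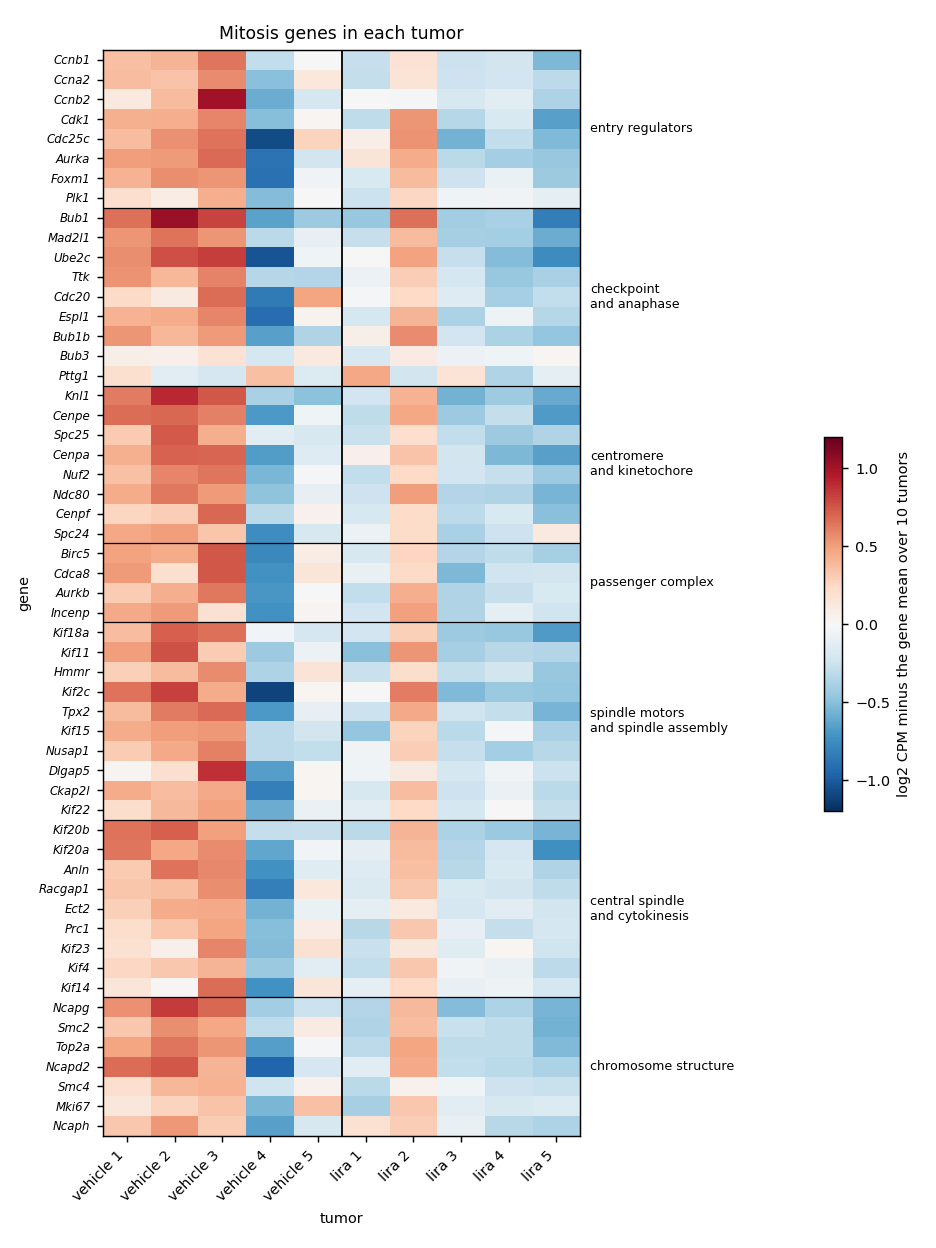
Log2 CPM of the 55 members (rows, grouped by role) in the 10 tumors (columns, 5 vehicle and 5 liraglutide), each minus its gene's mean over the 10 tumors; red is higher and blue lower. Vehicle 1, 2 and 3 and liraglutide 2 are red over nearly all rows, vehicle 4 is the bluest column, and Pttg1 departs from the order of the other rows.

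Of the genes that set entry into mitosis, Ccnb1, the B-type cyclin that activates CDK1, was the only entry regulator at an unadjusted p under 0.05. Its CPM was 55.4, 57.2, 67.6, 35.2 and 43.4 in vehicle tumors 1 to 5 and 35.6, 48.6, 36.2, 37.1 and 29.7 in liraglutide tumors 1 to 5, a log2 fold change of -0.47 ± 0.18 (SE; unadjusted p = 0.0271, edgeR adjusted p = 0.50). Vehicle tumor 4 lay among the liraglutide tumors, and liraglutide tumor 2 lay above vehicle tumors 4 and 5. Cdk1, the kinase itself, was at 77.2, 77.8, 85.8, 40.2 and 58.3 CPM in vehicle and at 46.3, 82.6, 45.1, 50.6 and 36.4 in liraglutide tumors, a log2 fold change of -0.38 ± 0.25 (SE; edgeR adjusted p = 0.622). Liraglutide tumor 2 thus held more Cdk1 than all vehicle tumors but the highest. Ccna2, cyclin A2, which acts in S phase and G2, averaged 89.7 ± 22.6 CPM in vehicle and 68.2 ± 9.98 in liraglutide tumors (SD, n = 5 each), a log2 fold change of -0.40.

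The kinases and the transcription factor that drive this step had smaller differences. Foxm1, the G2/M transcription factor, averaged 70.0 ± 24.2 CPM in vehicle and 57.1 ± 12.9 in liraglutide tumors (SD, n = 5 each), a log2 fold change of -0.29. Aurka, the centrosomal Aurora kinase, averaged 29.7 ± 11.4 and 24.1 ± 7.05 CPM, a log2 fold change of -0.30. For Plk1, which acts at centrosomes and kinetochores and in cytokinesis, CPM was 28.5, 26.3, 33.4, 17.2 and 24.8 in vehicle tumors 1 to 5 and 20.7, 29.4, 23.9, 24.1 and 22.9 in liraglutide tumors 1 to 5. Plk1 therefore hardly differed between the groups, at a log2 fold change of -0.10 ± 0.17 (SE; edgeR adjusted p = 0.844), and it had the smallest difference of the entry regulators, among which Ccnb2 and Cdc25c lay between.

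Among kinetochore genes, Knl1, the scaffold that recruits BUB1 and BUB3 to the outer kinetochore, had the lowest log2 fold change of all members. Its CPM was 165, 201, 180, 81.8 and 76.3 in vehicle tumors 1 to 5 and 91.4, 143, 72.3, 79.7 and 70.2 in liraglutide tumors 1 to 5, a log2 fold change of -0.62 ± 0.30 (SE; unadjusted p = 0.0633, edgeR adjusted p = 0.536). Its vehicle values fell into 3 high and 2 low tumors, and the low ones lay within the liraglutide range. Ndc80, of the complex that binds microtubules, averaged 34.6 ± 10.3 CPM in vehicle and 26.0 ± 8.53 in liraglutide tumors (SD, n = 5 each), a log2 fold change of -0.41. Cenpa, the histone H3 variant of centromeres, averaged 32.4 ± 11.9 and 23.7 ± 6.87 CPM, a log2 fold change of -0.45. The other subunits of the NDC80 complex, Nuf2, Spc24 and Spc25, had log2 fold changes of -0.45, -0.20 and -0.49, with standard errors of 0.20 to 0.25 over the 4 subunits.

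The checkpoint and anaphase genes spanned nearly the whole range of log2 fold changes, from Bub1 to Pttg1. Mad2l1, which encodes MAD2, the inhibitor of CDC20, was at 85.1, 92.5, 84.6, 46.9 and 55.1 CPM in vehicle and at 48.5, 76.6, 44.7, 44.4 and 38.9 in liraglutide tumors, a log2 fold change of -0.52 ± 0.23 (SE; unadjusted p = 0.0436, edgeR adjusted p = 0.515). Bub1, a checkpoint kinase, was at 76.6, 99.1, 85.4, 31.0 and 35.8 CPM in vehicle and at 35.5, 76.8, 36.2, 37.1 and 27.2 in liraglutide tumors. Its log2 fold change of -0.62 ± 0.37 (SE; edgeR adjusted p = 0.596) was near that of Knl1, but its values in each group split into high and low tumors and its unadjusted p was 0.116. Bub1b, which encodes BUBR1, averaged 64.7 ± 22.1 CPM in vehicle and 56.4 ± 18.0 in liraglutide tumors (SD, n = 5 each), a log2 fold change of -0.20.

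Bub3, the partner of BUB1 and BUBR1, was the steadiest member. Its CPM was 65.6, 65.1, 70.2, 53.8 and 67.6 in vehicle and 54.5, 66.8, 59.5, 60.2 and 63.5 in liraglutide tumors, a log2 fold change of -0.08 ± 0.10 (SE; edgeR adjusted p = 0.787). Vehicle tumor 4 was again the lowest vehicle tumor and liraglutide tumor 2 the highest liraglutide tumor, but the values differed by 1.31-fold at most.

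Pttg1, which encodes securin, the inhibitor of separase, was the exception to the shared order. Its CPM was 11.1, 8.82, 8.40, 12.5 and 8.63 in vehicle and 13.4, 8.33, 10.8, 7.56 and 9.01 in liraglutide tumors, a log2 fold change of -0.01 ± 0.19 (SE; edgeR adjusted p = 0.991). It was highest in liraglutide tumor 1 and vehicle tumor 4, and liraglutide tumor 2 lay near the bottom. The sign of its difference turned with the scaling, to 0.038 when counts were scaled by library size alone. Espl1, separase itself, followed the common order instead, with 31.0 ± 10.4 CPM in vehicle and 25.4 ± 6.11 in liraglutide tumors (SD, n = 5 each) and a log2 fold change of -0.29. Cdc20, which activates the anaphase-promoting complex, averaged 32.4 ± 10.9 and 26.0 ± 4.64 CPM, a log2 fold change of -0.31, and Ube2c, its ubiquitin-conjugating enzyme, had a log2 fold change of -0.50.

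**Figure D4:**
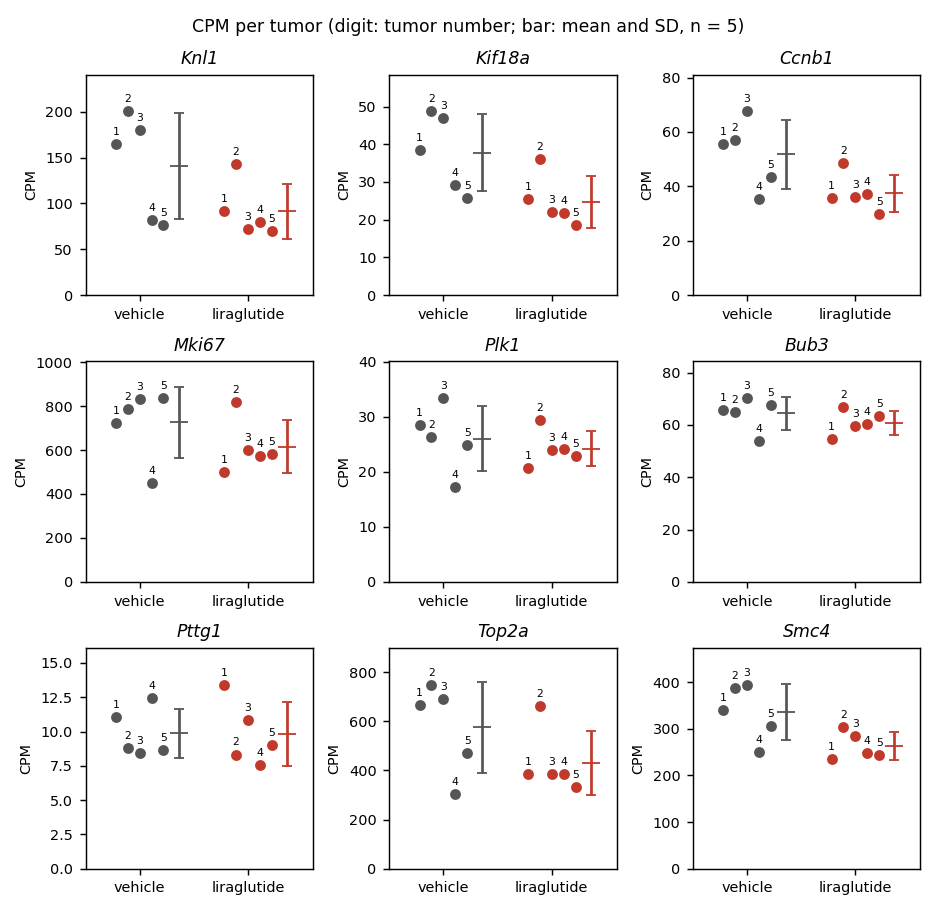
CPM of 9 members in each tumor (points, with the tumor number as a digit; vehicle left, liraglutide right) with the group mean and SD as a bar (n = 5 each); every axis starts at 0. Vehicle 1, 2 and 3 and liraglutide 2 are high for Knl1, Kif18a, Ccnb1, Top2a and Smc4, the groups are nearly level for Plk1 and Bub3, and Pttg1 has another order.

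Of the spindle genes, Kif18a, the kinesin that limits chromosome oscillation at the metaphase plate, had the lowest unadjusted p of all members. Its CPM was 38.5, 48.8, 46.9, 29.1 and 25.8 in vehicle and 25.4, 36.2, 21.9, 21.7 and 18.5 in liraglutide tumors, a log2 fold change of -0.61 ± 0.22 (SE; unadjusted p = 0.0187, edgeR adjusted p = 0.482). All liraglutide tumors but tumor 2 lay below all vehicle tumors. Kif11, the kinesin that pushes the spindle poles apart, averaged 107 ± 33.3 CPM in vehicle and 79.3 ± 27.2 in liraglutide tumors (SD, n = 5 each), a log2 fold change of -0.43. Tpx2, which activates Aurora A on the spindle, averaged 106 ± 36.7 and 80.2 ± 23.4 CPM, a log2 fold change of -0.40. Hmmr, which focuses spindle poles, had a log2 fold change of -0.42 at an unadjusted p of 0.0356 (edgeR adjusted p = 0.511).

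The chromosomal passenger complex corrects wrong attachments before anaphase and then moves to the central spindle. Its kinase Aurkb averaged 28.9 ± 9.03 CPM in vehicle and 23.4 ± 5.98 in liraglutide tumors (SD, n = 5 each), a log2 fold change of -0.31, and its subunit Birc5, survivin, 45.5 ± 15.6 and 33.1 ± 6.70 CPM, a log2 fold change of -0.46. Cdca8, borealin, and Incenp, the scaffold, had log2 fold changes of -0.40 and -0.21. The genes of the central spindle and cytokinesis had none at an unadjusted p under 0.05. Prc1, which bundles the antiparallel microtubules of the central spindle, averaged 88.9 ± 20.7 and 74.6 ± 14.8 CPM, a log2 fold change of -0.25. Anln, anillin of the contractile ring, averaged 191 ± 66.7 and 152 ± 33.8 CPM, a log2 fold change of -0.33.

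Mki67, Top2a and Smc4, of the chromosome structure genes, were the most abundant members. Mki67, whose product Ki-67 coats mitotic chromosomes, was at 721, 788, 832, 449 and 836 CPM in vehicle and at 498, 817, 601, 574 and 583 in liraglutide tumors, a log2 fold change of -0.24 ± 0.18 (SE; edgeR adjusted p = 0.671). Unlike most members it was as high in vehicle tumor 5 as in vehicle tumor 3. Top2a, topoisomerase II alpha, was at 666, 748, 690, 303 and 470 CPM in vehicle and at 386, 662, 387, 387 and 332 in liraglutide tumors, a log2 fold change of -0.42 ± 0.26 (SE; edgeR adjusted p = 0.605). Vehicle tumor 4 held the least Top2a of all 10 tumors.

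Condensin I and II share the subunits SMC2 and SMC4, and NCAPD2, NCAPG and NCAPH belong to condensin I alone. Smc4 was at 339, 387, 394, 250 and 306 CPM in vehicle and at 235, 305, 284, 248 and 244 in liraglutide tumors, a log2 fold change of -0.35 ± 0.14 (SE; unadjusted p = 0.0260, edgeR adjusted p = 0.499). Ncapg was at 67.4, 82.3, 74.0, 34.6 and 38.6 CPM in vehicle and at 36.1, 60.5, 32.1, 35.7 and 31.2 in liraglutide tumors, a log2 fold change of -0.60 ± 0.27 (SE; unadjusted p = 0.0483, edgeR adjusted p = 0.519). Smc2, Ncapd2 and Ncaph had log2 fold changes of -0.45, -0.36 and -0.16, the first at an unadjusted p of 0.0462 (edgeR adjusted p = 0.518). For Smc4 the vehicle tumors other than tumor 4 all exceeded the liraglutide tumors, whereas for Ncapg vehicle tumors 4 and 5 lay among them.

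Per length, as mean CPM over all tumors divided by kilobases of annotated exon, the levels of the members ran from 2.10 for Cenpa to 65.2 for Mki67. Top2a (55.2) and Smc4 (46.2) followed Mki67, then Cenpe, Tpx2 (19.7) and Ccna2 (19.3), and at the low end Cdc25c (2.28) and Spc24 (2.29) stood next to Cenpa. The lengths join all annotated exons of a gene, so genes with long rare exons may be placed too low in this order. The joined length of Cenpa was 13355 bases, and the use of its exons was not examined.

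The other genes of mitosis and of the cell cycle were examined as written lists that hold no member. None of their genes passed an edgeR adjusted p of 0.05, and the counts that follow are of genes with a lower mean in liraglutide tumors, against 52.6% of all genes. Counts at an unadjusted p under 0.05 are of lower genes unless said otherwise, against 5.62% of all genes. Of 33 genes of the inner kinetochore and kinetochore linkers, 31 were lower (median -0.29 on the log2 scale), and 4 had an unadjusted p under 0.05 (Cenpw, Cenpk, Cenpi and Cenpq). Cenpw, a histone-fold protein of centromeric chromatin, was at 6.29, 5.27, 6.40, 4.18 and 4.89 CPM in vehicle and at 3.20, 2.78, 3.72, 2.74 and 2.98 in liraglutide tumors, a log2 fold change of -0.81 ± 0.18 (SE; unadjusted p = 9.38e-04, edgeR adjusted p = 0.482). It was the gene of that list whose groups did not overlap, as for 0.888% of all genes, and liraglutide tumor 2, high for most members, was here the second lowest tumor of all.

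The complexes that time and carry out sister separation had medians nearer to 0. Of 17 genes of the anaphase-promoting complex and its regulators 15 were lower, with a median of -0.10, and 2 had an unadjusted p under 0.05 (Anapc10 and Cdc27). Of 15 cohesin genes 14 were lower, with a median of -0.17, and 3 had an unadjusted p under 0.05: Esco1, an acetyltransferase that stabilizes cohesin on DNA, Stag2, a core subunit, and Sgo2a, a shugoshin that protects centromeric cohesin. All 3 subunits specific to condensin II were lower, with a median of -0.16. These complexes also act outside mitosis, in G1 or in interphase chromatin.

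Of 22 other G2/M regulators 20 were lower (median -0.25), and 2 had an unadjusted p under 0.05: Cks2, which binds CDK1, with a log2 fold change of -0.49, and Depdc1a, with -0.68. Of 22 other spindle genes 17 were lower (median -0.28). In that list 3 lower genes and 1 higher gene had an unadjusted p under 0.05, the higher being Numa1, which tethers microtubules at spindle poles and is also a nuclear protein of interphase (0.20 ± 0.08, SE; edgeR adjusted p = 0.515). All 7 tested genes of centrosome duplication were lower (median -0.33), among them Plk4, the kinase that starts it (-0.67). In a list of MuvB, B-MYB and NF-Y genes, which also holds E2f4, Tfdp1, Rbl1 and Rbl2, 12 genes were tested. Of those tested, 7 were lower (median -0.04), and Mybl2, which encodes B-MYB, stood at 0.03.

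The genes of DNA replication and S phase, which precede mitosis in the cycle, followed the same tumors. Of 40 such genes 38 were lower (median -0.24 on the log2 scale), and 3 had an unadjusted p under 0.05 (Rfc4, Ccne2 and Rrm2). Their centred mean log2 CPM was 0.38, 0.39, 0.38, -0.48 and -0.12 in vehicle tumors 1 to 5 and -0.14, 0.29, -0.26, -0.22 and -0.22 in liraglutide tumors 1 to 5. The same tumors were thus at the top and the same tumor at the bottom as for the mitosis genes. The 7 inhibitors of cyclin-dependent kinases did not share a direction, with 3 lower and 4 higher and a median of 0.07. By tumor, the inhibitors' centred mean log2 CPM was -0.34, -0.37, 0.09, 0.14 and 0.003 in vehicle tumors 1 to 5. In liraglutide tumors 1 to 5 it was 0.16, -0.31, 0.13, 0.27 and 0.22. It was lowest in vehicle tumors 1 and 2 and liraglutide tumor 2, which were high in mitosis RNA, but vehicle tumor 3 stood above the mean. Cdkn1a, which encodes p21, was the inhibitor with an unadjusted p under 0.05, at a log2 fold change of -0.48 (unadjusted p = 0.0362, edgeR adjusted p = 0.512).

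**Figure D5:**
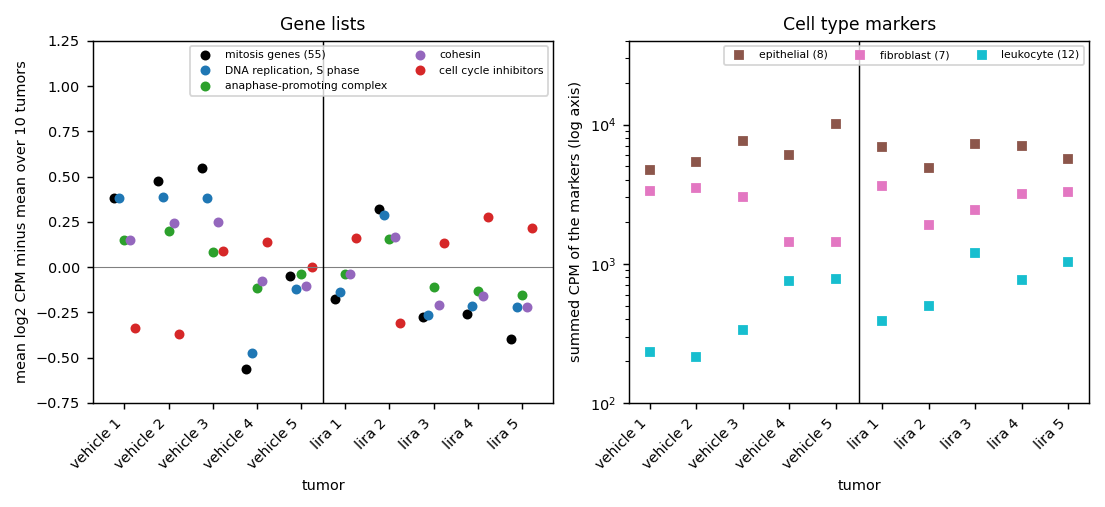
Left, mean log2 CPM of 5 gene lists in each tumor, minus the list's mean over the 10 tumors; right, summed CPM of epithelial, fibroblast and leukocyte markers on a log axis; vehicle tumors stand left of the line in each panel. The mitosis and S phase lists share their highest tumors and their lowest, vehicle 4, and the leukocyte sum, most of which is Cd74, is lowest in vehicle 1, 2 and 3.

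Within vehicle, some sums of cell type markers were lowest and others highest in the tumors with the most mitosis RNA. The labels call the cell type lung adenocarcinoma, and the summed level of 8 epithelial markers was 4704 to 10061 CPM in vehicle and 4894 to 7219 in liraglutide tumors. The sum came from Cdh1 and keratins, whereas Epcam (0.163 to 4.63 CPM) and Cldn7 (0.245 to 2.20 CPM) were low and Cldn4 was at 0 in 4 tumors. Of 4 lung lineage markers, Nkx2-1 stood at 17.7 to 132 CPM and Sftpb at 65.1 to 530 CPM, but Napsa stood at 0.420 to 2.55 CPM and Sftpc at 0 to 5.96 CPM. The lung lineage sum was 91.2, 166, 161, 597 and 599.5 CPM in vehicle tumors 1 to 5 and 284, 362, 532, 177 and 404 CPM in liraglutide tumors 1 to 5, lowest in the vehicle tumors with the most mitosis RNA. Of the 7 epithelial markers tested, 3 had a lower mean in liraglutide tumors (Krt8, Krt18 and Krt19) and 4 a higher one, and they did not share an order of tumors: Cdh1 was lowest in vehicle tumors 1, 2 and 3, whereas Krt18 was highest in vehicle tumor 3 and Epcam in vehicle tumor 1. The part of these markers in the result was not tested. The summed level of 12 leukocyte markers was 233, 213, 333, 757 and 778 CPM in vehicle tumors 1 to 5 and 391, 496, 1202, 762 and 1036 CPM in liraglutide tumors 1 to 5, with no marker at 0 in any tumor. The sum was lowest in the vehicle tumors with the most mitosis RNA, but most of it was Cd74, at 183 CPM in vehicle tumor 3 and at 266 and 372 CPM in liraglutide tumors 1 and 2. Without Cd74, vehicle tumor 3 lay above liraglutide tumors 1 and 2. Of the 11 leukocyte markers tested 10 were higher in liraglutide tumors, none at an unadjusted p under 0.05, and their part in the result was not tested. Within the groups, vehicle tumor 4 had the second highest leukocyte sum of the vehicle tumors and liraglutide tumor 2 the second lowest of the liraglutide tumors, each opposite to its mitosis level.

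The summed level of 7 fibroblast markers was 3351, 3518, 3029, 1429 and 1444 CPM in vehicle tumors 1 to 5. In liraglutide tumors 1 to 5 it was 3590, 1911, 2437, 3145 and 3281 CPM. Within vehicle it was high in tumors 1, 2 and 3 and lowest in tumor 4, as mitosis RNA was. Within liraglutide it was lowest in tumor 2, the tumor highest in mitosis RNA. Endothelial markers (5) summed to 106, 138, 151, 88.6 and 95.4 CPM in vehicle tumors 1 to 5. In liraglutide tumors 1 to 5 they summed to 107, 94.3, 115, 118 and 123 CPM. They too were highest in tumors 1, 2 and 3 within vehicle and lowest in tumor 2 within liraglutide. Skeletal muscle markers (5 of 5 higher in liraglutide tumors, none at an unadjusted p under 0.05) summed to 29.6 to 232 CPM and 57.0 to 280 CPM. The 4 keratinocyte markers matched summed to 8.36 to 17.6 CPM in vehicle and 6.65 to 200 CPM in liraglutide tumors, with the highest sum in liraglutide tumor 2, and Krt5 and Krt1 were at 0 in 4 and 5 tumors. All 4 had a higher mean in liraglutide tumors, and 3 of them had an unadjusted p under 0.05 (Krt14, Krt1 and Krt5, with log2 fold changes of 2.36, 4.23 and 3.55). Of the other lists' markers, Pdgfrb of fibroblasts (log2 fold change 0.36) and Nkx2-1 (0.99) had higher means at an unadjusted p under 0.05. Adipocyte markers (5) summed to 15.3 to 83.1 CPM in vehicle and 18.3 to 47.5 in liraglutide tumors. The part of skin, muscle, fat, stroma and vessels in the result was likewise not tested.

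Total counts ran from 9927942 to 14480593 per tumor, and member counts from 44 to 10434, and counting error takes a larger part of the spread for low members such as Spc24 and Pttg1 than for Mki67. Over all genes together, the spread between tumors of a group was 9.21 to 87.6 times what counting alone gives (chi-square per degree of freedom). Of the members, 31 share exon bases in GENCODE M39 with a gene on the opposite strand, such as Ccna2 with Exosc9, Pttg1 with Slu7 and Kif18a with Mettl15, and 4 with a gene on the same strand. The library kit kept strand, but the strand setting of the counting was not given in the sources used here, so reads of such pairs may be divided between them.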

How the data were processed

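The authors deposited raw counts per gene for 10 tumors. Per the paper's methods, 100-base read pairs from rRNA-depleted, dUTP-marked libraries passed FastQC, were mapped with Bowtie 1.0.1 and TopHat 2.0.13 to GRCm39 and counted with featureCounts. GEO's processing field names mm10 and GRCh38 instead, so the build of the counts is not settled and the only positions printed are those of RefSeq promoter windows. Samples were left out by the authors at quality assessment. Annotation release, strand and multi-mapping settings are not given in the sources used here.

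Groups came from the sample labels. Identifiers were matched without version to GENCODE M39 (51731 of 55401, 93.4%). In R 4.3.3, edgeR 4.0.16 (filterByExpr, TMM, quasi-likelihood F test, treatment as the single factor) tested 17464 genes, with Benjamini-Hochberg adjustment over all of them at 0.05. CPM uses the TMM-scaled library size. Tumor means of lists used log2 CPM with a prior count of 2. A floor set at 3 counts corresponds to 0.207 to 0.315 CPM per tumor, for counting error alone, and values below it, such as the lowest Epcam value, rest on fewer counts. Alternatives were DESeq2 1.42.0, limma-voom (limma 3.58.1), other scalings and filters, a block on the tumor number, and leaving out each tumor. The fits were tested on simulated data. P values set the difference between the groups against the spread between these tumors within a group. The engineered alleles of the line are not reported here.

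Members, lists and marker genes were chosen with earlier results of these data known, so no list was given a test. Named genes were 24 members fixed by role, any member past the adjusted threshold or without overlap between groups, and the 3 members with the lowest and the 3 with the highest log2 fold change. Other genes were named from counts after their values were seen. Promoter windows came from RefSeq (GRCm38.p6), for 45 of 55 members.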

Additional observations from a re-analysis of the deposited data

Results flagged for a closer look

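Among the 27 named mitosis genes, the values of each group of 5 tumors were examined for a tumor that stood far from the other 4 (Dixon's test). This was so in 12 of 54 gene and group pairs, all of them for liraglutide tumor 2 as the highest liraglutide tumor. Chance alone marks about 1 in 20 groups, and because these genes move together the 12 are not independent. The CPM of liraglutide tumor 2 was 662 for Top2a, 85.9 for Ccna2, 34.0 for Aurkb, 76.6 for Mad2l1, 41.0 for Ndc80 and 143 for Knl1. It was 128 for Kif11, 121 for Tpx2, 44.7 for Birc5, 211 for Anln, 60.5 for Ncapg and 76.8 for Bub1. That tumor also had the highest sum of keratinocyte markers, 200 CPM, whose part in these values was not tested. No vehicle tumor was marked.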

How the results depend on the processing

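No member passed an adjusted p of 0.05 with edgeR, limma-voom or DESeq2, under any scaling or filter, with the block or without any single tumor. DESeq2 gave an adjusted p for 26 of the 55 members. The median log2 fold change of the members stayed below 0 throughout, from -0.51 without vehicle tumor 4 to -0.26 without vehicle tumor 3. The count of members at an unadjusted p under 0.05 with a lower mean, 8 as reported, was 4 with library size alone (3.54% of all genes), 12 with every gene that had at least 1 count (3.6%), 7 with limma-voom (5.09%) and 10 with DESeq2, and lay between 0 and 43 with any single tumor removed. With the share of all genes beside it, it was 0 without vehicle 2 (3.35%), 1 without vehicle 3 (4.29%), liraglutide 1 (4.78%) or liraglutide 5 (2.99%), 2 without liraglutide 4 (3.98%), 3 without vehicle 1 (4.07%) or liraglutide 3 (3.35%), 13 without vehicle 5 (7.44%), 23 without liraglutide 2 (7.95%) and 43 without vehicle 4 (8.06%). The cause was not tested. Library size alone moved the median of all genes from -0.02 to 0.04, and 54 members were then below 0, against 44.2% of all genes. The sign of the log2 fold change turned for Pttg1, at 0.038 with library size alone and 0.013 with at least 10 counts in every tumor. With single tumors removed Pttg1 ran from -0.15 without liraglutide 1 to 0.097 without vehicle 4, and Plk1 from -0.21 without vehicle 4 to 0.0036 without vehicle 3. Kif14 also turned, from -0.30 to 0.030 at its extremes, and 53 to 55 members were below 0 with any single tumor removed.

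The tumor numbers were not taken to pair the samples, because not every pair of same-numbered tumors deviated together: the correlations of same-numbered deviations were 0.354, 0.565, -0.0753, 0.0681 and 0.389, and 3 of 10 tumors correlated best with their own number. With the replicate block the count was 17, against 7.31% of all genes, the median -0.34 and the called members 0. The depth limits the lowest members most, such as Spc24 at 3.68 to 8.72 CPM.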
